A study of Macaca fascicularis with 44 samples.

Results

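The comparison described here is that of brain endothelial cells re-plated in culture (P1D7) vs. the freshly isolated cortical microvessels they were grown from (P0D0), in cynomolgus monkey (Macaca fascicularis). It was chosen by fraction and brain structure from the sample labels, and it holds 14 of the 44 libraries of the series, 8 of P0D0 and 6 of P1D7. P0D0 is the vascular fraction obtained from cortex by enzymatic digestion and gradient centrifugation, with no time in culture. P1D7 cells derive from such a fraction kept for 7 days in an endothelial growth medium, where puromycin was used for selection, and then brought to single cells and plated again for a further 7 days. An intermediate fraction from cortex (P0D7, 8 libraries), taken at the end of the first culture, is given beside the comparison, as are 22 libraries of P0D7 cells from brainstem, hippocampus, striatum and cerebellum. The tissue came from animals of both sexes that had been used before in pre-clinical studies and went through a washout. Age is not part of the sample labels and no genotype was modified. A microvessel preparation of this kind still holds cells other than endothelial cells.

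Endothelial cells of brain capillaries form the blood-brain barrier. They are joined by continuous tight junctions, hold few transcytotic vesicles, and carry efflux pumps of the ABC family that expel many drugs, puromycin included, so that puromycin spares cells with strong efflux. In the tissue they are wrapped by pericytes and by the endfeet of astrocytes, whose signals maintain the barrier, and primary cultures of brain endothelium are known to lose part of that phenotype when these neighbours and blood flow are removed. The comparison of P1D7 with P0D0 addresses how far the transcriptome of a re-plated culture lies from that of the vessels. The deposited tables name genes by Ensembl identifier without symbols, and none of the identifiers could be matched to a name here. Genes are therefore described by number, level and identifier, and the markers of endothelial cells, pericytes, glia, neurons and blood cells were not analysed here, so that the labelled cell type was not checked against its markers.

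Of 28623 identifiers, 13395 reached at least 1 FPKM (fragments scaled to transcript length and library total) in at least 50% of the libraries of either fraction and were tested. A gene was called where the fitted fold change was at least 1.5 and the Benjamini-Hochberg adjusted p of the edgeR quasi-likelihood test was at most 0.05. By this rule 8560 genes differed, or 63.9% of those tested. In P1D7, 3848 genes were higher (28.7%) and 4712 were lower (35.2%). In bulk RNA, a changed share of a cell type and a changed amount of RNA per cell cannot be told apart. This touches every gene called here, higher or lower.

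The decreases were larger than the increases. Genes that fell had a median log2 fold change of -2.14, or 4.40-fold, whereas genes that rose had one of 1.19, or 2.28-fold. At least 8-fold lower were 1858 genes, or 39.4% of those that fell, and 1219 were at least 32-fold lower. Of the genes that rose, 232 (6.03%) were at least 8-fold higher and 57 were at least 32-fold higher. FPKM values of the 2 fractions did not overlap for 3787 of the genes that fell (80.4%) and for 2868 of those that rose (74.5%), beside 7069 of all tested genes (52.8%). The share of tested genes called was 63.9%. The median log2 fold change over all tested genes was -0.08. It was -0.23 where counts were scaled to library size alone, without TMM factors, and by that scaling 3319 genes were higher and 5230 lower.

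**Figure D1:**
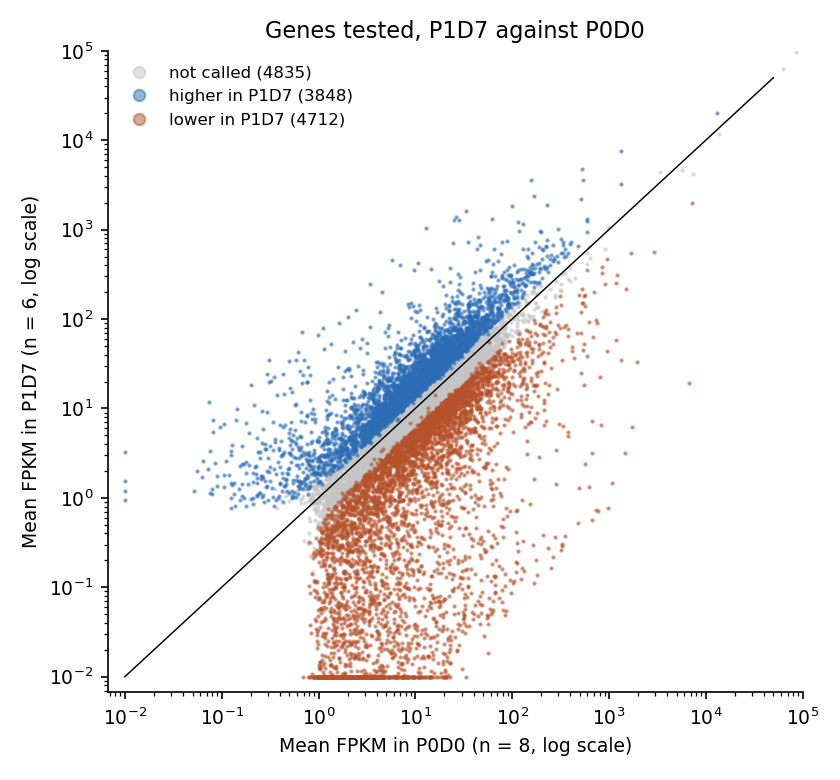
Mean FPKM of each tested gene in P0D0 (x axis, 8 libraries) and P1D7 (y axis, 6 libraries), both on log scales, with means under 0.01 drawn at 0.01. Blue points are the 3848 genes called higher in P1D7, orange points the 4712 called lower and grey points the 4835 not called. The lower right of the plot, where genes at 1 to 100 FPKM in P0D0 sit near 0 in P1D7, has no counterpart of similar size at the upper left.

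Not called were 4835 genes (36.1%). Of these, 1762 passed the adjusted p but changed by less than 1.5-fold, and 3073 did not pass it. For 2102 genes the whole 95% confidence interval of the fold change lay within 1.5-fold in either direction, and 1418 of them had at least 10 FPKM in P0D0. The interval reached 2-fold or more for 632 of the genes not called, and for these the data do not separate a change of that size from none.

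The P1D7 libraries listed fewer genes than the P0D0 libraries. At least 1 FPKM was seen for 12726 to 13355 genes per P0D0 library (mean 12944 ± 210, SD, n = 8) and for 10946 to 11072 genes per P1D7 library (mean 10995 ± 46.6, SD, n = 6). The ranges did not overlap, with a difference of -1949 genes (P1D7 minus P0D0, two-sided exact permutation test, p = 0.000666, the smallest this design allows, and 0.00117 after adjustment over the 7 library measures tested). Depth goes the other way, since total counts ran from 8600889 to 10738453 in P0D0 and from 17150398 to 19849831 in P1D7. With every library thinned to the smallest total, 13345 to 13867 genes per P0D0 library reached 1 CPM (counts scaled to a common library total), against 11435 to 11547 in P1D7.

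Raw counts were concentrated on fewer genes in P1D7, whereas for FPKM the difference did not pass the test. The number of most abundant identifiers that together held 50% of a library's counts was 638 ± 136 in P0D0 (SD, n = 8, range 317 to 735) and 423 ± 17.4 in P1D7 (SD, n = 6, range 404 to 446; exact permutation test, p = 0.00466, adjusted 0.00653). The cortical P0D7 libraries had 612 ± 83.9 (SD, n = 8, range 481 to 727), all above P1D7, and were not tested on this measure. P0D0 replicate 3 gave the 317, and the other P0D0 libraries lay between 625 and 735, all above P1D7. In that library 2 identifiers of 299 bases took 14.8% and 6.42% of the counts, whereas each took 2.25 to 6.06% and 1.27 to 2.97% in the other P0D0 libraries. P0D0 replicate 4 stood apart by a further 2 identifiers, of 1560 and 948 bases, at 3.38% and 2.53% of the counts against at most 0.834% and 0.874% in the other P0D0 libraries. Without identifiers under 500 bases, the number holding 50% of the counts was 874 ± 31.8 in P0D0 and 567 ± 22.1 in P1D7, with no overlap (exact permutation test, n = 8 and 6, p = 0.000666, adjusted 0.00117). In cortical P0D7 it was 787 ± 71.0 (SD, n = 8, range 672 to 880). Computed on FPKM over all identifiers, the number was 17.0 ± 14.9 in P0D0 and 12.5 ± 1.64 in P1D7, a difference that did not pass the test (exact permutation test, n = 8 and 6, p = 0.466). Without both P0D0 libraries, 8475 genes were called, 3868 higher and 4607 lower.

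The share held by the 10 most abundant identifiers was 15.2 ± 5.62% in P0D0 (SD, n = 8) and 15.3 ± 0.644% in P1D7 (SD, n = 6). This difference did not pass the test (exact permutation test, p = 0.864), and without P0D0 replicate 3 it was 2.06 percentage points higher in P1D7 (exact permutation test, n = 7 and 6, p = 0.021). Identifiers under 500 bases held 11.7 ± 5.64% of the counts in P0D0 and 9.75 ± 0.215% in P1D7 (exact permutation test, n = 8 and 6, p = 0.511).

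**Figure D2:**
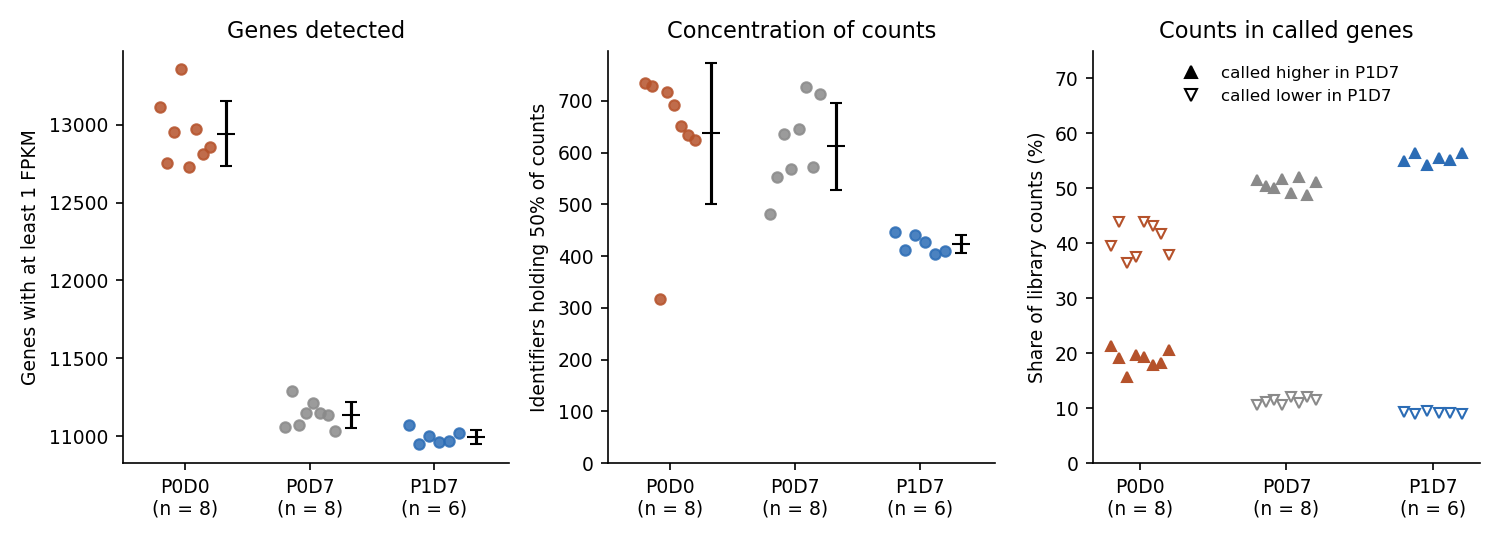
Each point is a library of cortical P0D0, P0D7 or P1D7, and black marks give the mean and SD. Left, genes with at least 1 FPKM (axis not from 0); middle, number of most abundant identifiers that hold 50% of the counts, where P0D0 replicate 3 sits at 317; right, percent of the library's counts in genes called higher (filled) or lower (open) in P1D7 vs. P0D0. The called genes were chosen on the outer fractions, so their order at the right is a description, and there the P0D7 libraries sit close to P1D7. In the middle the P0D7 libraries lie at 481 to 727, above all P1D7 libraries.

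Called genes, which were 63.9% of the genes tested, held most of the counts in both fractions. Genes called higher took 19.0 ± 1.77% of the counts in P0D0 (SD, n = 8) and 55.4 ± 0.889% in P1D7 (SD, n = 6), and genes called lower took 40.5 ± 3.01% and 9.18 ± 0.229%. These shares describe genes selected on the same contrast and were not tested. Among the 100 identifiers with the highest median FPKM, the 2 fractions had 36 in common. The 64 that left the highest 100 had a median rank of 1297 in P1D7, 59 of them were called lower, and 8 were under 1 FPKM there. The 64 that entered had a median rank of 289.5 in P0D0, all 64 were called higher, and 0 were under 1 FPKM in P0D0. The genes that became dominant in the re-plated cells were thus already listed in the vessels. Genes that left or entered were chosen on the levels of the same contrast, so their calls follow largely from that choice. Of all genes tested, 35.2% were called lower and 28.7% higher.

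The most abundant genes of the vessels moved in both directions. Of 447 genes with a median of at least 100 FPKM in P0D0, 233 were called lower (52.1%) and 133 higher (29.8%), beside 35.2% and 28.7% of all genes tested. In P1D7, 227 of the 447 (50.8%) remained at 100 FPKM or more, 155 lay between 10 and 100, and 2 were under 0.1. At 10 to 100 FPKM in P0D0 there were 6139 genes, of which 4282 (69.8%) stayed in that range and 290 moved to 100 or more. Of 6301 genes at 1 to 10 FPKM, 3406 (54.1%) stayed, 1024 moved to 10 to 100, and 907 (14.4%) fell under 0.1. These levels enter the fold change itself, so no test was made between the classes.

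**Figure D3:**
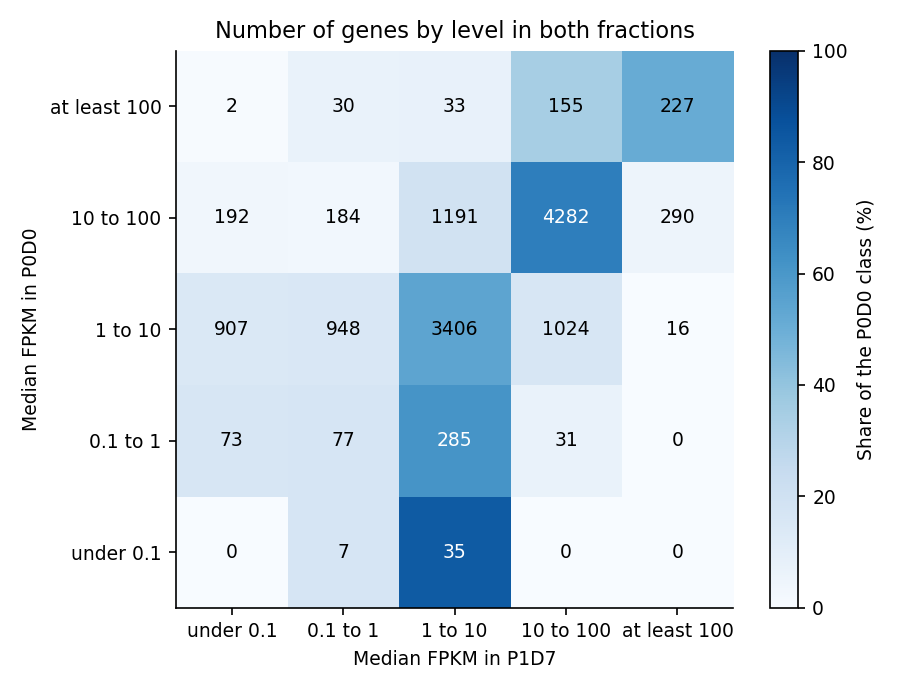
Number of tested genes by median FPKM in P0D0 (y axis) and in P1D7 (x axis), with the colour giving the percent of the P0D0 class. Of the genes at 10 to 100 FPKM in P0D0, 4282 stayed in that class, whereas 907 genes at 1 to 10 FPKM ended under 0.1 and 35 went from under 0.1 to 1 to 10.

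Loss of a transcript from the listed set was more frequent than gain. At least 1 FPKM in 50% of the libraries was reached by 13045 genes in P0D0 and by 11087 in P1D7, with 10737 in common, or 82.3% of the first set and 96.8% of the second. Of the 2308 genes that reached it only in P0D0, 2165 were called lower and 266 also reached it in P0D7. Of the 350 that did so only in P1D7, 297 were called higher and 265 also reached it in P0D7. Both sets were chosen on levels in the libraries that were tested, so their calls follow largely from that choice. Among all genes tested, 35.2% were called lower and 28.7% higher.

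A stricter condition left 354 genes that each of the P0D0 libraries listed at 1 FPKM or more and each of the P1D7 libraries at under 0.1 FPKM, and 0 genes with the opposite pattern. In P0D0 the 354 genes had a median level of 6.20 FPKM, 98 had at least 10 FPKM, 8 had at least 50, and the highest reached 95.6. Together they held 1.02 to 1.47% of the counts of a P0D0 library and 0.00209 to 0.00252% of those of a P1D7 library. For 44 of them no count was seen among the 111346871 counts of the 6 P1D7 libraries, which allows at most 3 counts over the group, and 170 had 3 counts or fewer. Under 0.1 FPKM in all 8 cortical P0D7 libraries were 224 of the 354, and 155 were so in all 30 P0D7 libraries of every structure. In the P0D7 libraries of the other structures, 13 of the 354 reached 1 FPKM at least once, the highest value being 93.1 FPKM. With the limit for P1D7 raised to 0.5 FPKM, 756 genes had this pattern.

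In the other direction, 25 genes were at 1 FPKM or more in all P1D7 libraries and under 0.5 in all P0D0 libraries. Their median level in P1D7 was 2.51 FPKM, and the highest reached 19.5. None was at 0 in P0D0, where they had between 2 and 116 counts over the 8 libraries. At least 1 FPKM was seen in every cortical P0D7 library for 11 of the 25, and in every P0D7 library of the other structures for 7.

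The identifiers described singly changed most among called genes whose fractions did not overlap, whose mean was 10 FPKM or more where they were higher, and which had 20 counts or more over the libraries where they were lower. ENSMFAG00000002005 rose most. It ranged from 0.133 to 0.756 FPKM in P0D0 (median 0.199, 47 counts over 8 libraries) and from 27.1 to 51.9 FPKM in P1D7 (median 33.4, 9548 counts over 6 libraries). All P1D7 libraries lay far above all P0D0 libraries (log2 fold change 7.22, SE 0.36, edgeR adjusted p = 3.84e-11). The cortical P0D7 libraries sat between them, at 6.12 to 23.6 FPKM, and those of the other structures spread from 1.94 to 58.2 FPKM.

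ENSMFAG00000000291 followed, with 0.285 to 1.06 FPKM in P0D0 (median 0.668) and 51.2 to 104 FPKM in P1D7 (median 67.4). The fractions did not overlap (log2 fold change 6.86, SE 0.24, edgeR adjusted p = 1.72e-12). Cortical P0D7 libraries lay between them, at 5.31 to 47.4 FPKM, whereas the P0D7 libraries of the other structures spread from 0.681 to 115 FPKM, which reaches into the P0D0 range and above that of P1D7. P1D7 was called higher than P0D7 for this gene (log2 fold change 1.62, edgeR adjusted p = 0.000730) and for ENSMFAG00000002005 (1.47, edgeR adjusted p = 0.000647).

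ENSMFAG00000038771 fell most. Its level was 82.2 to 413 FPKM in P0D0 (median 255, 25155 counts) and 0.0443 to 0.318 FPKM in P1D7 (median 0.116, 24 counts). The lowest P0D0 library, replicate 4, was still far above any P1D7 library (log2 fold change -10.39, SE 0.47, edgeR adjusted p = 1.61e-11). In cortical P0D7 it was at 0.0714 to 0.540 FPKM, a range that overlaps that of P1D7, and in the other structures it did not exceed 0.192 FPKM.

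ENSMFAG00000042945 had 16.1 to 478 FPKM in P0D0 (median 34.1, 21905 counts) and 0.0261 to 0.207 FPKM in P1D7 (median 0.117, 26 counts). The highest value was that of P0D0 replicate 3, the library with the high share of 299-base identifiers, and the next was 113 FPKM in replicate 1. The log2 fold change was -10.27 (SE 1.29, edgeR adjusted p = 1.91e-06) and -8.70 without replicate 3, so that this 1 library enlarges the change but does not set its direction. It was at 0.0356 to 1.43 FPKM in cortical P0D7. For this gene and ENSMFAG00000038771 the difference between P1D7 and P0D7 did not pass the test (log2 fold changes -2.39 and -0.65, edgeR adjusted p = 0.154 and 0.421).

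**Figure D4:**
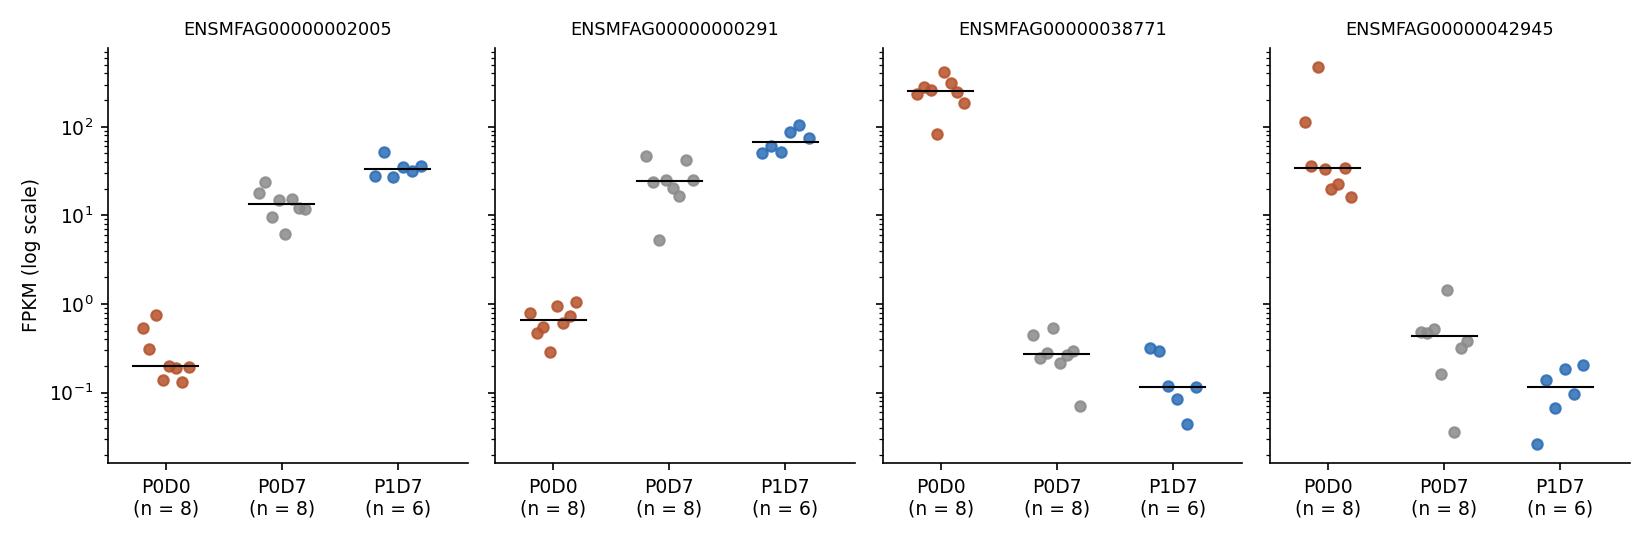
FPKM (log scale) of 2 rising (left) and 2 falling (right) identifiers with the largest changes in P1D7 vs. P0D0, with a point for each cortical library and a line at the median. The P0D7 libraries lie between the other fractions for the first 2 identifiers, and at or near the P1D7 values for the last 2; the point at 478 FPKM is P0D0 replicate 3.

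The intermediate fraction shows where the differences were already present before re-plating. In a fit of the 3 cortical fractions over 13522 genes, 8995 (66.5%) were called between P0D7 and P0D0 and 2090 (15.5%) between P1D7 and P0D7. These comparisons share libraries with that of P1D7 and P0D0, so the values are only set side by side. Genes called higher in P1D7 had a median of 9.77 FPKM in P0D0, 24.0 in P0D7 and 21.2 in P1D7, and 3372 of the 3848 were also called higher in P0D7. Genes called lower had medians of 8.86, 1.72 and 1.34 FPKM, and 4247 of the 4712 were also called lower in P0D7. Over all 13395 genes tested, 4069 were called higher and 4829 lower in P0D7 vs. P0D0. With the 6 codes that P0D7 and P1D7 share as a block, 3008 genes were called between them, 1510 higher and 1498 lower in P1D7, whereas 2676 were called in the same libraries without the block, 1222 higher and 1454 lower.

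A minority of genes reached the call only after re-plating. Of the genes higher in P1D7 than in P0D0, 460 were not called in P0D7 vs. P0D0, with a median log2 fold change of 0.38 there and of 0.82 in P1D7 vs. P0D0, and 160 of them were called higher in P1D7 vs. P0D7. Among the genes lower in P1D7, 440 were not called in P0D7 vs. P0D0 (medians -0.40 and -0.90), and 189 were called lower in P1D7 than in P0D7. The rest of the 460 and 440 crossed the threshold without a called difference between P1D7 and P0D7. Of all genes tested, 6.06% were called higher and 8.97% lower in P1D7 than in P0D7. In addition, 16 genes were lower in P0D7 but higher in P1D7 than in P0D0, and 25 were higher in P0D7 but lower in P1D7. For these genes the direction of the difference from the vessels turned between the first and the second plating.

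Direction varied with transcript length, except among the shortest transcripts. A length was computed for 13000 of the tested genes (97.1%) as the value that turns the deposited count into the deposited FPKM, and the genes were split into quartiles. In the shortest quartile, up to 1530 bases, 40.0% of genes were called higher and 31.2% lower, with a median log2 fold change of 0.28. The 502 genes under 500 bases did not follow this, with 33.7% higher, 36.3% lower and a median of -0.01. The shares were 31.5% and 32.4% in the second quartile and 25.02% and 36.5% in the third. In the longest, from 3820 bases, 21.3% were higher and 39.0% lower, with a median log2 fold change of -0.27. Over genes with at least 10 FPKM in both fractions the medians went from 0.72 in the shortest quartile (1183 genes) to 0.08 in the longest (1366 genes).

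The same was seen library by library. The median log2(CPM + 0.5) of the shortest quartile less that of the longest was -3.10 to -2.68 in P0D0 (median -2.88) and -2.49 to -2.44 in P1D7 (median -2.48). The fractions did not overlap, with a difference of 0.41 (two-sided exact permutation test, n = 8 and 6, p = 0.000666, adjusted 0.00117 over the 7 library measures), and the measure was chosen after the data had been seen. Without P0D0 replicates 3 and 4 it was also 0.41. The cortical P0D7 libraries lay at -2.54 to -2.21, all above P0D0. RNA integrity was not given in the labels, and its part in this difference was not tested.

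**Figure D5:**
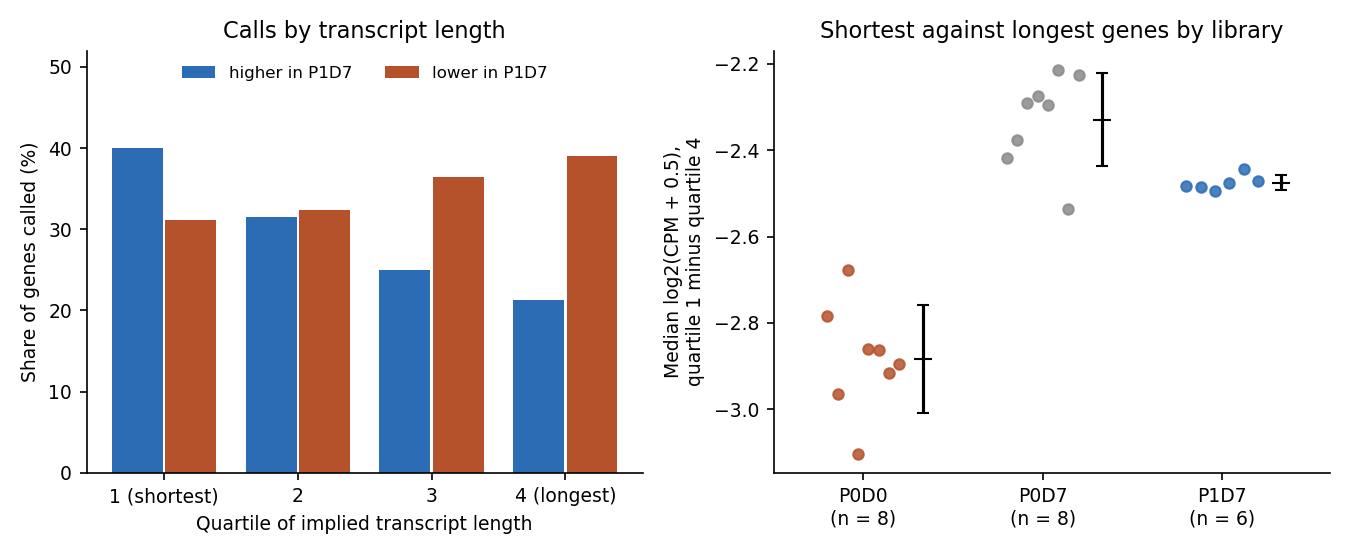
Left, percent of genes called higher (blue) and lower (orange) in P1D7 vs. P0D0 by quartile of transcript length, 3250 genes each. Right, median log2(CPM + 0.5) of the shortest quartile minus that of the longest in each library, with mean and SD in black (axis not from 0): the P1D7 libraries sit between -2.49 and -2.44 and the P0D0 libraries between -3.10 and -2.68.

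Transcript length within a gene also differed for some genes. The length that links count and FPKM was the same in every library for 2775 of 8309 measured genes and varied for 5534, as it does where the quantification shares reads among isoforms of different length. Of the 5534, 165 (2.98%) differed at least 1.2-fold between the fractions (limma on log2 length, adjusted p at most 0.05), 122 being shorter and 43 longer in P1D7. The ranges did not overlap for 98 of the shorter and 28 of the longer genes, which were called on these same lengths. Some genes not called for length also had ranges without overlap, and their share over the 5534 was not computed. A difference of at least 1.5-fold was seen for 27 genes, 21 shorter and 6 longer. Among all 13395 genes tested, 36.1% were not called in the count comparison, and the share over the 5534 was not computed. Of the 165 genes, 75 were not called there, so that their implied lengths differed without a called change in total count. This measure was chosen after the data had been seen, and the depths of the 2 fractions differ throughout.

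P1D7 libraries lay closer to each other than P0D0 libraries did. The correlation of log2 CPM between libraries was 0.984 on average within P1D7 (15 pairs), 0.949 within P0D0 (28 pairs) and 0.682 between the fractions (48 pairs), across genes, which are not independent replicates. The first principal component held 86.4% of the variance, with P0D0 libraries at -124 to -103 and P1D7 libraries at 145 to 149. The second held 2.73%, and its highest values were those of P0D0 replicates 3 (52.6) and 4 (37.1). At equal depth, over 7208 genes with at least 100 thinned counts on average in both fractions, the median coefficient of variation was 21.8% in P0D0 and 10.0% in P1D7 over the 6 codes that both share. Without the codes of P0D0 replicates 3 and 4 it was 13.0% and 10.1%, so most of the gap in spread rests on these 2 P0D0 libraries.

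Labels carry a code for each library, and 6 codes are present in both fractions. Within codes, 3590 of the 3848 genes called higher were higher in all 6, and 4257 of the 4712 called lower were lower in all 6. The calls were made on these same libraries, so this agreement in sign is a description and not separate support. Of the 4835 genes not called, 743 were higher and 439 lower in all 6 codes. A 2-fold difference was seen for 2325 to 2987 genes upward and for 3592 to 3990 genes downward in a single code. The lowest numbers in both directions came from the code of replicate 1. As a description, the differences of any 2 codes correlated across genes at 0.893 to 0.944 (15 pairs of codes).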

How the data were processed

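RNA was sequenced from ribosomal RNA-depleted, directional, paired-end libraries. The authors removed ribosomal, low-quality and short reads, aligned the rest to the Washington University cynomolgus assembly with the Omicsoft Sequence Aligner, and deposited estimated counts of read pairs per Ensembl gene, without normalization (1.45% not whole), and FPKM values per gene. Gene lengths behind FPKM differ between libraries for many genes, so tests used counts. No molecular identifiers are described, so limits from counts of 0 cover counting error only.

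Here the rounded counts entered edgeR 4.0.16 (R 4.3.3; TMM, trended dispersion, quasi-likelihood F test). P0D0 (n = 8) and P1D7 (n = 6) were fitted alone, and the 3 cortical fractions together for P0D7. The study's tool, DESeq2 1.42.0, was an alternative, as were other scalings, filters, thresholds, limma 3.58.1 on log2 FPKM, thinning, the code as a block, and leaving out each library. Library measures were compared by exact permutation (scipy 1.17.1). On simulated data (13395 genes, 200 changed) the test recovered 20% of genes changed 1.5-fold, 72% at 2-fold and 100% at 4-fold, and called 7 unchanged genes. A change of 1.5-fold lies at the threshold of the call itself. The simulation changed far fewer genes than the 8560 called here, with as many up as down, so these rates need not hold for this comparison.

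None of the 28623 identifiers (0) matched the 40596 genes of the reference table, so gene lists, markers and symbols were not used here, and 2 identifiers each way were named by the rule given in the text. The comparison and its rules were chosen with earlier results of these data known. Samples were grouped by their labels, which do not say whether libraries of a group come from separate animals, so p-values measure the spread between these samples. No 2 libraries of a fraction differed by less than sampling noise (mean chi-square per gene at least 17.5).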

Additional observations from a re-analysis of the deposited data

Results flagged for a closer look

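P0D0 replicate 3 lay far from the other P0D0 libraries in 4 of the 20 group measures examined, where chance is expected to give about 1 in 20. Its 10 most abundant identifiers held 28.5% of the counts, where the remaining P0D0 libraries ranged from 11.2 to 15.4%. In this library 317 identifiers held 50% of the counts, against 625 to 735. Identifiers under 500 bases held 24.5%, against 6.49 to 13.1%. ENSMFAG00000042945 was at 478 FPKM, against 16.1 to 113. The first 3 measures share the same abundant short identifiers and are not separate signs, and whether these have a part in the fourth was not tested.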

How the results depend on the processing

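Of the results recomputed, the number of genes called stayed within 1.5 times the 8560 under all 31 alternatives, and 0 genes were called in opposite directions. It was 6270 at 2-fold, when 2474 were higher, and 11062 of 19648 genes with at least 1 count. DESeq2 called 8566 genes. With the shared codes as a replicate block, 8563 genes were called, and 8544 in the same libraries without it. The deviations of same-code libraries correlated at 0.045 to 0.198, over 0.1 in 4 of 6 pairs. Those of libraries with different codes correlated at -0.077 to 0.046 (42 pairs). What the codes stand for is not stated, and the main fit did not pair the samples by code. As a hint only, 6 of 6 P1D7 and 5 of 6 P0D0 libraries correlated best with their own code. The median log2 fold change was -0.23 with library size alone, -0.30 over all genes with a count, and -0.18 and -0.20 with limma on log2(FPKM + 1) and log2(FPKM + 0.1). On FPKM, the number of identifiers holding 50% of the total differed by -4.5 (exact permutation test, p = 0.466). The share of the 10 most abundant identifiers had no stable direction: leaving out each library gave -0.402 to 2.06 percentage points, and leaving out P0D0 replicates 3 and 4 gave 2.12. Changed lengths numbered 27 at 1.5-fold, 865 with no fold threshold and 102 with at least 200 counts, and the cause was not tested. Leaving out each library gave 8485 to 8584 genes called, 3804 to 3893 higher, 4652 to 4729 lower, 356 to 382 genes lost from P1D7 by the strict condition, -1980 to -1890 genes detected, -260 to -201 identifiers holding 50%, 151 to 173 changed lengths, and a length difference of 0.38 to 0.44 on the log2 scale. All 4 named identifiers kept their call, and the log2 fold change of ENSMFAG00000042945 ranged from -10.60 to -5.37, the latter with limma on log2(FPKM + 1), where the added 1 shrinks changes of low values. Leaving out P0D0 replicates 3 and 4 together, leaving out identifiers under 500 bases, the block of P0D7 and P1D7, and the alternatives of the length measures were chosen after seeing the data. Depth limits P0D0, with 10738453 counts or fewer per library, more than P1D7.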
